A study of Saccharomyces cerevisiae with 7 samples.

Results

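The genes compared were PHO4, PHO2, PHO80, PHO85 and PHO81, which encode the transcription factors, the kinase, the cyclin and the kinase inhibitor of the phosphate-responsive signalling pathway of the budding yeast Saccharomyces cerevisiae. They were chosen by gene symbol from the annotation of the array, and each of the 5 was found with 1 probe set, among 5449 named genes. Transcripts were measured in total RNA of whole cultures with the Affymetrix Yeast Genome 2.0 array, and each culture had its own array. The hmt1 deletion group held 3 biological replicates of a haploid strain in which a KANMX4 cassette replaces HMT1, which encodes the main arginine methyltransferase of budding yeast. For comparison, the wild-type group held 4 biological replicates of BY4741, the parent of that strain. Both groups therefore carry the MATa mating type and the marker alleles his3Δ1, leu2Δ0, met15Δ0 and ura3Δ0. Rich, phosphate-replete and phosphate-depleted media are listed for the study, and the labels do not say which of them these cultures grew in.

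In cells with ample phosphate, the cyclin Pho80 and the cyclin-dependent kinase Pho85 phosphorylate the transcription factor Pho4, which is then exported from the nucleus and kept from its promoters. When phosphate is scarce, Pho81 inhibits this kinase, and Pho4 enters the nucleus, where it activates genes of phosphate uptake and storage, often together with the homeodomain protein Pho2. PHO81 is itself a target of Pho4, which closes a feedback loop, whereas the pathway is switched mainly through the phosphorylation and location of Pho4 protein, which transcript arrays do not measure.

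Every value is a log2 expression level from the authors' RMA normalization, and every difference is the log2 level of the deletion strain minus that of the wild type. HMT1 read 5.03, 4.50 and 4.77 in deletion replicates 1 to 3, against 12.10, 11.76, 11.58 and 11.90 in wild-type replicates 1 to 4, and its signal fell by 7.07 in the deletion strain (SE 0.15, limma adjusted p = 4.89e-07). Array medians lay between 9.95 and 9.98. Wild-type replicate 2 stood apart from the rest. Its median absolute difference from the other arrays was 0.144 to 0.191, against 0.0649 to 0.124 for all pairs of arrays without it. Wild-type replicates 2 and 4 were both above 1 and 3 in 6 of 6 a-specific genes, against 13.1% of all probe sets, and in 1 of 4 alpha-specific genes. The a-agglutinin subunit gene AGA2 read 11.76 and 12.04 in replicates 2 and 4 and 10.54 and 10.49 in replicates 1 and 3. Of the markers of mating type, STE2, which encodes the alpha-factor receptor of MATa cells, averaged 13.22 in both groups. MF(ALPHA)1, the alpha-factor gene of the opposite type, averaged 4.12 in the deletion strain and 4.08 in the wild type. None of the 6 a-specific or the 4 alpha-specific genes passed the test (limma, 0 with an unadjusted p under 0.05), with MFA2 at 0.12 and SAG1 at -0.18. AGA2 was at 0.26 and between 0.02 and 0.54 with 1 array left out.

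None of the 5 regulators passed the test over all probe sets (limma adjusted p = 0.742 to 0.988). The inhibitor gene PHO81 had the lowest difference, at -0.23, and the genes of the cyclin PHO80 and the coactivator PHO2 were at 0.15 and 0.14. The kinase gene PHO85 was at 0.06 and PHO4 at -0.0048. The median of the 5 differences was 0.06, against 0.0065 for all probe sets, and ranged from 0.03, without wild-type replicate 2 or deletion replicate 1, to 0.12, without wild-type replicate 3. Over the 5498 probe sets tested, 11 (0.200%) passed at an adjusted p under 0.05, with 5 higher (0.0909%) and 6 lower (0.109%), and 365 (6.64%) had an unadjusted p under 0.05. Among the 5 regulators, PHO2 and PHO81 had an unadjusted p under 0.05 (limma, 0.0440 and 0.0460). The groups did not overlap in the same 2 genes, against 7.64% of all probe sets. PHO2 was higher in the deletion strain, where 3.15% of all probe sets were higher without overlap, and PHO81 was lower, where 4.49% were.

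**Figure D1:**
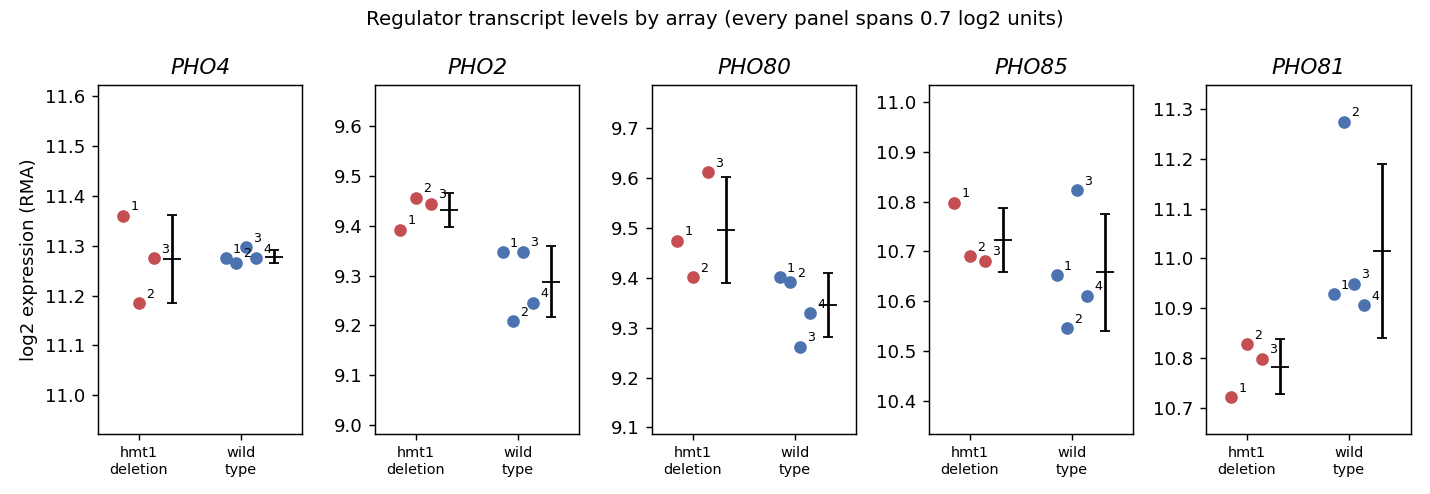
Log2 expression (RMA) of the 5 regulator genes on each array, hmt1 deletion (red, 3 arrays) left of wild type (blue, 4 arrays). Numbers are replicate numbers, and black marks show the mean with 1 SD. Only PHO2 and PHO81 have groups that do not overlap, and wild-type replicate 2 lies alone at the top for PHO81.

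PHO4 encodes the basic helix-loop-helix activator on which the pathway acts. Its level was 11.36, 11.19 and 11.27 in deletion replicates 1 to 3, against 11.27, 11.27, 11.30 and 11.27 in wild-type replicates 1 to 4. The wild-type arrays lay within the range of the deletion arrays. The means were 11.27 ± 0.09 (SD, n = 3) in the deletion strain and 11.28 ± 0.01 (SD, n = 4) in the wild type. The difference of -0.0048 (SE 0.06) had a 95% interval of -0.14 to 0.13, or a change in signal of -9.31% to 9.54%. Its sign was not fixed, being 0.04 without deletion replicate 2 and -0.05 without deletion replicate 1. The wild-type spread of PHO4 was small for these arrays, with 99.0% of the probe sets having a larger wild-type SD. That spread includes tied values, since wild-type replicates 1 and 4 and deletion replicate 3 all read exactly 11.274734, and it may be understated.

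PHO2 encodes the homeodomain protein that binds with Pho4 at phosphate promoters, and with other factors at purine and histidine synthesis genes. It read 9.39, 9.46 and 9.44 in deletion replicates 1 to 3, against 9.35, 9.21, 9.35 and 9.25 in wild-type replicates 1 to 4. All 3 deletion arrays lay above all 4 wild-type arrays, by 0.04 at the closest point. The means were 9.43 ± 0.03 (SD, n = 3) in the deletion strain and 9.29 ± 0.07 (SD, n = 4) in the wild type. The difference of 0.14 (SE 0.06, limma adjusted p = 0.742) had a 95% interval of 0.0050 to 0.28, or 0.344% to 21.6% more signal, and did not pass the test. It was 0.20 against wild-type replicates 2 and 4 and 0.08 against replicates 1 and 3. Leaving out an array cannot make groups that are apart overlap. The separation of PHO2 without wild-type replicate 2, found in this direction in 4.40% of all probe sets, therefore adds nothing.

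PHO85 encodes the cyclin-dependent kinase, which serves many processes through a family of cyclins, and PHO80 encodes the cyclin that directs it to Pho4. PHO85 read 10.80, 10.69 and 10.68 in deletion replicates 1 to 3, against 10.65, 10.55, 10.82 and 10.61 in wild-type replicates 1 to 4. The groups overlapped because wild-type replicate 3 was the highest array of all. Its difference was 0.06 (SE 0.08, limma adjusted p = 0.863, 95% interval -0.12 to 0.24), with means of 10.72 ± 0.06 (SD, n = 3) in the deletion strain and 10.66 ± 0.12 (SD, n = 4) in the wild type. It was 0.14 against wild-type replicates 2 and 4 and -0.01 against replicates 1 and 3, so the sign depended on the wild-type arrays used. Without wild-type replicate 2 it was 0.03.

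PHO80 read 9.47, 9.40 and 9.61 in deletion replicates 1 to 3, against 9.40, 9.39, 9.26 and 9.33 in wild-type replicates 1 to 4. The groups met at a single value, the level of 9.40 shared by deletion replicate 2 and wild-type replicate 1. The means were 9.50 ± 0.11 (SD, n = 3) in the deletion strain and 9.35 ± 0.06 (SD, n = 4) in the wild type. The difference of 0.15 (SE 0.07, limma adjusted p = 0.768) had a 95% interval of -0.01 to 0.31 and was 0.09 without deletion replicate 3, the highest array. It stayed above 0 with any 1 array left out, between 0.09 and 0.20.

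PHO81 encodes the inhibitor of the Pho80-Pho85 kinase and is the member of this group whose own gene Pho4 activates. It read 10.72, 10.83 and 10.80 in deletion replicates 1 to 3, against 10.93, 11.27, 10.95 and 10.91 in wild-type replicates 1 to 4. Each deletion array was lower than each wild-type array, by 0.08 at the closest point. Wild-type replicate 2 lay 0.35 above the mean of the other 3 wild-type arrays, which spanned 10.91 to 10.95. The means were 10.78 ± 0.05 (SD, n = 3) in the deletion strain and 11.01 ± 0.17 (SD, n = 4) in the wild type.

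The PHO81 difference of -0.23 (SE 0.10, limma adjusted p = 0.742) had a 95% interval of -0.46 to -0.0053, or a change in signal of -27.2% to -0.365%, and did not pass the test. Without wild-type replicate 2 it was -0.14 (SE 0.05, limma adjusted p = 0.687), and the wild-type mean was 10.93 ± 0.02 (SD, n = 3). The groups were bound to stay apart there, since leaving out an array cannot make them overlap. In that comparison 5.84% of all probe sets were lower without overlap, and 10.2% did not overlap in either direction. Of the 5498 probe sets, 10.6% stood higher in wild-type replicate 2, relative to the other wild-type arrays, than PHO81 did. The difference was -0.31 against wild-type replicates 2 and 4 and -0.16 against replicates 1 and 3.

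The precision of 7 arrays and the adjustment over all probe sets limited what could be called for these genes. With its own standard error, a difference of at least 0.43 would have been needed for PHO4 and PHO2, 0.51 for PHO80, 0.56 for PHO85 and 0.71 for PHO81 to reach the smallest test statistic among the called probe sets. Each measured difference was below that size by definition, since no regulator was called. The size rests on the probe sets called in this fit, whose number changed with the setting, and is not a limit of detection. Smaller changes of these transcripts are not excluded. Because the RNA came from whole cultures, a lower level in every cell and a low level in a share of the cells cannot be told apart.

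Within an array, the level of a regulator was also compared with that of PHO81, a choice made after their values had been seen and given without a test. Only the change of such a ratio between the groups can be read, since its absolute value also depends on the probes. The log2 ratio of PHO80 to PHO81 was -1.25, -1.43 and -1.19 in deletion replicates 1 to 3, against -1.53, -1.88, -1.69 and -1.58 in wild-type replicates 1 to 4. It was higher by 0.38 in the deletion strain (0.31 without wild-type replicate 2), and the groups did not overlap. The ratio of PHO2 to PHO81 was higher by 0.38 as well (0.26 without wild-type replicate 2), at -1.33, -1.37 and -1.35 in the deletion arrays, against -1.58, -2.07, -1.60 and -1.66 in the wild type. The ratios of PHO85 and PHO4 to PHO81 were higher by 0.30 and 0.23 with groups that overlapped, and by 0.17 and 0.14 without wild-type replicate 2. PHO81 separates the groups by itself, and 39.3% of all probe sets had a ratio to PHO81 that was higher in every deletion array than in any wild-type array, so nothing particular to PHO80 and PHO2 can be read from these ratios.

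**Figure D2:**
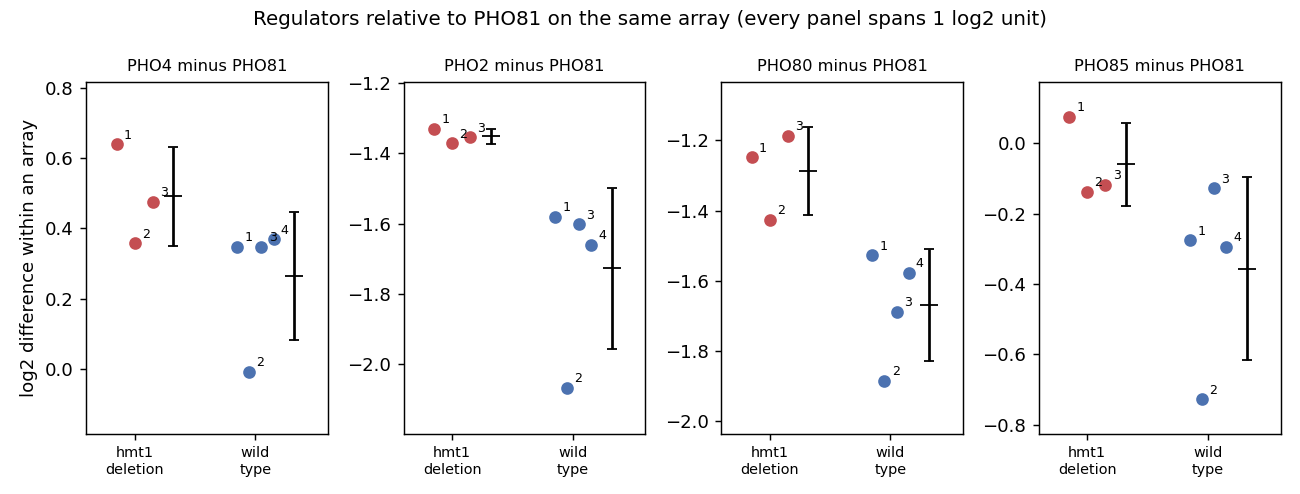
Log2 difference between each of 4 regulators and PHO81 on the same array, hmt1 deletion (red, 3 arrays) left of wild type (blue, 4 arrays). Numbers are replicate numbers, and black marks show the mean with 1 SD. The groups are apart for PHO2 and PHO80 and overlap for PHO4 and PHO85, and wild-type replicate 2 is the lowest array in every panel.

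The level of PHO81 was set beside that of the other genes that Pho4 activates. Of 20 such genes, 19 were measured and 18 had lower means in the deletion strain, with a median difference of -0.22 against 0.0065 for all probe sets. In 13 of them every deletion array was below every wild-type array, against 4.49% of all probe sets, and 2 passed the test, both lower, against 0.109%. Without wild-type replicate 2, 14 of the 19 were lower without overlap, against 5.84% of all probe sets. These include the 13 above, which leaving out an array could not make overlap. None passed the test of limma. In that fit 12 of the 19 had an unadjusted p under 0.05 (limma), against 345 of all 5498 probe sets. Since phosphate genes were reported from these very samples in the title of the study, this list lends no independent support to its own direction.

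The 2 that passed were the secreted acid phosphatase genes PHO5 and PHO11. PHO5 read 11.84, 11.88 and 12.11 in deletion replicates 1 to 3, against 13.32, 12.86, 13.04 and 12.75 in wild-type replicates 1 to 4, and fell by 1.05 (SE 0.14, limma adjusted p = 0.0494). PHO11 fell by 1.06 (SE 0.13, limma adjusted p = 0.0354), and the suffix of its probe set allows for a match to more than 1 transcript. These calls rested on the full set of arrays. With 1 array left out PHO5 passed once in 7 fits, without wild-type replicate 1 (limma adjusted p = 0.0491 to 0.309), and PHO11 in none (0.0562 to 0.170). Neither passed with a replicate block or in the ordinary test. The high-affinity phosphate transporter gene PHO84 was at -0.11 (SE 0.06), at levels of 13.93 to 14.14 near the top of the scale, where differences can be compressed. The difference of PHO81, -0.23, stood beside a median of -0.22 for the other targets, and without wild-type replicate 2 the values were -0.14 and -0.25. With 1 array left out, PHO81 ranged from -0.27 to -0.14 and that median from -0.28 to -0.22.

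The high level of PHO81 in wild-type replicate 2 was shared by some of these targets and not by others. Wild-type replicate 2 was the highest wild-type array for 8 of the 19 targets (42.1%), among them PHO89 and PHO86, and for 26.8% of all probe sets. The sodium-dependent phosphate transporter gene PHO89 read 11.92 there and 11.08 to 11.23 in the other wild-type arrays. PHO86, which encodes a protein needed for Pho84 to leave the endoplasmic reticulum, read 12.67 there and 12.24 to 12.33 in the others. PHO5 was highest in wild-type replicate 1 instead. These 2 examples of shared behaviour were chosen after their values were seen.

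The genes whose levels followed PHO81 most closely over the 7 arrays were SPP41 (Pearson r = 0.995), MSS11 (0.984) and SSH4 (0.983). They are given as a description, since 198 genes had an r above 0.9 with PHO81 and a single array, wild-type replicate 2, is the highest in each of the 3. SSH4, which encodes an adaptor of the ubiquitin ligase Rsp5, read 8.52 to 8.55 in the deletion arrays, against 8.94 in wild-type replicate 2 and 8.62 to 8.67 in the other wild-type arrays. The other 4 regulators varied less over the 7 arrays than the median probe set (SD 0.119), with SDs of 0.05 to 0.11, and no such genes were sought for them.

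Pho85 is shared by other cyclins, and all 9 of their genes were measured. None passed the test (smallest limma adjusted p = 0.742, and 0 with an unadjusted p under 0.05), 4 were higher and 5 lower in the deletion strain, and the median difference was -0.00042 (-0.02 to 0.05 with 1 array left out, when 2 to 5 were lower). PCL1, a cyclin of the start of the cell cycle, was at -0.21 (SE 0.09), and at -0.12 without deletion replicate 3. PCL8, which directs Pho85 to glycogen synthase, was at 0.20 (SE 0.10), and at 0.12 without wild-type replicate 2. PCL2, PCL6 and PCL9 were at 0.12, 0.10 and 0.06, and PCL5, PCL10, CLG1 and PCL7 at -0.05, -0.02, -0.02 and -0.00042, with signs that changed when 1 array was left out. The deletion arrays lay above all wild-type arrays in PCL6 alone, 1 of the 9 against 3.15% of all probe sets, at 9.42 to 9.43 in the deletion strain against 9.20 to 9.40 in the wild type. PHO80, at 0.15, lay inside the range of the other cyclins.

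**Figure D3:**
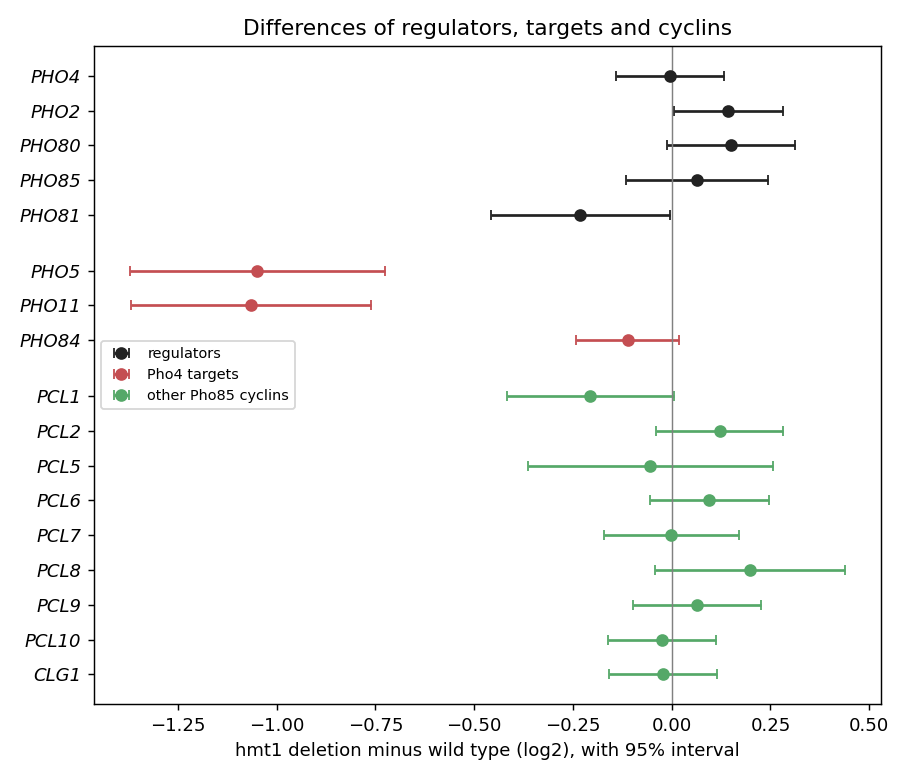
Difference in log2 expression, hmt1 deletion minus wild type, with its 95% interval (limma, 3 and 4 arrays), for the 5 regulators, 3 Pho4 targets and the 9 other Pho85 cyclin genes. PHO5 and PHO11 lie near -1.05, while every regulator and cyclin lies between -0.23 and 0.20.

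A chosen list of 9 genes of other Pho85 substrates was measured, and none passed the test (limma, 0 with an unadjusted p under 0.05). Their differences had a median of 0.03 (0.0094 to 0.06 with 1 array left out). The glycogen synthase gene GSY2 was at 0.54 (SE 0.30), with 11.01, 11.07 and 10.48 in deletion replicates 1 to 3, against 9.51, 10.29, 10.71 and 10.74 in wild-type replicates 1 to 4. Its groups overlapped, and without wild-type replicate 1, the lowest array, the difference was 0.28. SIC1, an inhibitor of the cell cycle kinase, was at 0.11 (SE 0.06). The other cyclin-dependent kinase genes had a median of 0.0070 over 5 genes (-0.01 to 0.05 with 1 array left out), with SSN3 and CDC28 both at 0.08 (0.0087 to 0.15 and 0.05 to 0.15 with 1 array left out), and none passed (limma, 0 with an unadjusted p under 0.05).

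The carriers that move Pho4 across the nuclear envelope were next. PSE1, the importin of Pho4, was at 0.03 (SE 0.06), and MSN5, its exportin, at 0.06 (SE 0.08), with ranges of 0.00012 to 0.05 and 0.02 to 0.12 when 1 array was left out, and neither passed (limma, 0 with an unadjusted p under 0.05). Of 8 genes of the inositol phosphate and adenylate enzymes that act upstream of Pho81, none passed, and 3 were higher and 5 lower. Their median was -0.02 (-0.05 to 0.02 with 1 array left out). In the limma fit, 2 of the 8 had an unadjusted p under 0.05, against 6.64% of all probe sets. IPK1, an inositol phosphate kinase, was at -0.40 (SE 0.10, limma adjusted p = 0.414), and PLC1, the phospholipase C that starts this route, at -0.23 (SE 0.08). The deletion arrays lay below the wild type in 2 of the 8, against 4.49% of all probe sets. These were IPK1 and KCS1, an inositol pyrophosphate synthase gene, which was at -0.12 (SE 0.08) and at -0.06 without wild-type replicate 1, its highest array.

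Pho81 belongs to the proteins with an SPX domain, which senses inositol pyrophosphates. Among 8 measured genes of the other SPX proteins, 7 were lower in the deletion strain with a median of -0.14, and none passed. By limma, 4 of the 8 had an unadjusted p under 0.05, against 6.64% of all probe sets. GDE1, which cleaves glycerophosphocholine, was at -0.28 (SE 0.08), and VTC3, a polyphosphate synthesis subunit, at -0.15 (SE 0.06). GDE1, VTC2, VTC3 and VTC4 also stand among the Pho4 targets, and 3 of them, GDE1, VTC2 and VTC3, are among these 4, so the lists are not separate evidence.

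**Figure D4:**
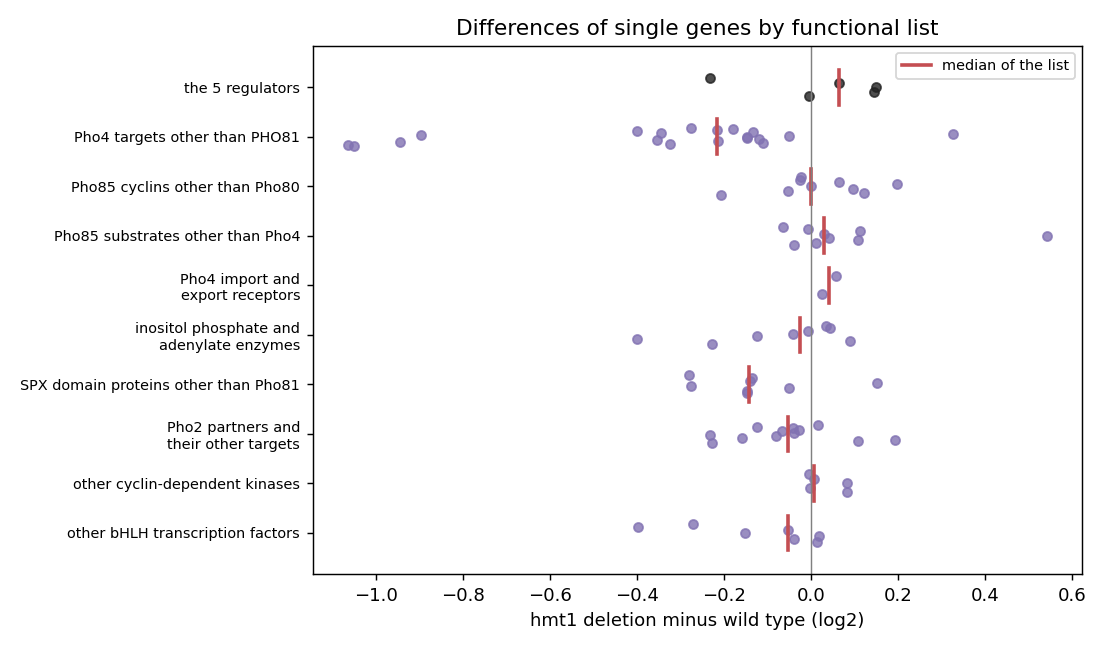
Difference in log2 expression of single genes, hmt1 deletion minus wild type, for the 5 regulators and 9 lists of related genes. Each point is a gene and each red line the median of its list. The Pho4 targets reach from -1.06 to 0.33, and the regulators from -0.23 to 0.15.

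Pho2 also acts with Bas1 at purine and histidine synthesis genes and with Swi5 at HO, the mating-type endonuclease gene. Of 12 measured genes of these partners and targets, 3 were higher and 9 lower, with a median of -0.05, and none passed. By limma, 1 of the 12 had an unadjusted p under 0.05, against 6.64% of all probe sets. HO was at 0.19 (SE 0.08, limma adjusted p = 0.742) and BAS1 at -0.23 (SE 0.15), which became -0.04 without deletion replicate 2. The median depended on the arrays, at -0.14 with 10 of the 12 lower without wild-type replicate 2, and at 0.03 with 3 lower without wild-type replicate 4. It was -0.00019 without deletion replicate 2 and -0.11 without deletion replicate 3. Among 7 other genes of the basic helix-loop-helix class to which Pho4 belongs, none passed. Their median was -0.05 (-0.10 to -0.03 with 1 array left out). An unadjusted p under 0.05 (limma) was found in 1 of the 7, against 6.64% of all probe sets. TYE7, an activator of glycolytic genes, was at -0.40 (SE 0.17), and HMS1 at -0.27 (SE 0.12) at a level of 4.39 in the deletion strain and 4.66 in the wild type, near the 4.50 to 5.03 of the HMT1 probe set in the deletion arrays.

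No regulator gene lies beside another, and none of the 10 genes next to them passed the test. By limma, 2 of the 10 had an unadjusted p under 0.05, against 6.64% of all probe sets. The differences of these neighbours ranged from -0.35 for IZH2, next to PHO80, to 0.21 for NAS6, next to PHO81, and the groups overlapped in all 10. NAS6, which encodes a proteasome assembly chaperone, and its neighbour PHO81 had differences of opposite sign. IZH2, which belongs to a family linked to zinc, and PHO80 did as well. YHB1, the other neighbour of PHO81, had the same sign as PHO81, at -0.06. RRP6, the other neighbour of PHO80, had the opposite sign to PHO80, at -0.05. These genes were taken by position alone, from the R64 gene order.

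**Figure D5:**
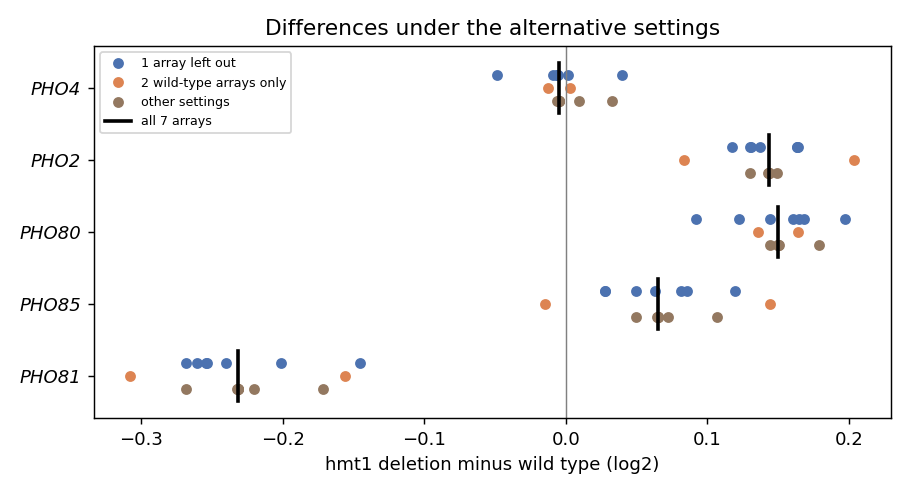
Difference in log2 expression of each regulator, hmt1 deletion minus wild type, with all 7 arrays (black line) and under 18 alternative settings (points). PHO81 lies below 0 and PHO2 and PHO80 above 0 under every setting shown, while PHO4 and PHO85 have points on both sides of 0. Settings that change only the test or the probe sets tested repeat the value of all 7 arrays.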

How the data were processed

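For 7 arrays, log2 expression per probe set was deposited. Per the submitters' processing notes the authors used RMA, and the software was affy 1.52.0. RMA gives the probe intensities of every array the same distribution before they are summarized, so a change in total messenger RNA cannot be seen. The definition of the probe sets, any filter and the genome build were not stated in the sources used here, so no coordinates are printed. The platform annotation named 5498 of 5900 probe sets to 1 gene each, and 12 symbols were updated through the RefSeq R64 gene table.

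The groups were compared probe set by probe set with limma 3.58.1 (lmFit, then eBayes) under R 4.3.3. The test was two-sided, with Benjamini-Hochberg adjustment over the 5498 probe sets and a threshold of 0.05. The procedure was tested on simulated data. The members and lists were chosen with earlier results of these data known. Named were HMT1, the 5 regulators, PHO5 and PHO84, all Pho85 cyclins, and from each other list any gene that passed or, failing that, the 2 of smallest p, besides the 3 genes most like a regulator whose SD was above the median. Genes named outside this rule are KCS1, PHO89, PHO86, VTC2, VTC4 and STE2 and the neighbours. PHO12, VTC5 and ADE5,7 were not analysed here. Lists used the brightest probe set of a gene. Python 3.11.15 and matplotlib 3.10.9 served for the figures.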

Additional observations from a re-analysis of the deposited data

Results flagged for a closer look

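PHO81 in wild-type replicate 2 was at 11.27, while the other 3 wild-type arrays lay between 10.91 and 10.95. The gap to the nearest of them was 0.882 of the range of the group, above Dixon's limit for 4 samples, which chance passes in about 1 group of 20. The other 4 regulators and HMT1 had no such array. As all of these genes were looked at, chance flags at least 1 of them more often than that. The same array differed most from all others, and its part in the PHO81 difference is given by the value without it, -0.14 against -0.23 with all arrays.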

How the results depend on the processing

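The 5 regulators were recomputed under 18 alternatives each. In 84 of the 90 values the direction and the side of the threshold were kept, and none passed the test (limma adjusted p = 0.148 to 0.999). That count overstates how far the direction was tried. Leaving out dim probe sets, using all probe sets, the intensity trend, robust eBayes and the ordinary test cannot change a difference. The replicate block gave the same differences as leaving out wild-type replicate 4. PHO81 stayed below 0 (-0.31 to -0.14), and PHO2 (0.08 to 0.20) and PHO80 (0.09 to 0.20) above it. PHO4 changed sign with wild-type replicates 2 and 4 only (0.0029), repeated quantile normalization (0.0095) and array weights (0.033), and ranged from -0.048 to 0.039 with 1 array left out. PHO85 was at -0.015 with wild-type replicates 1 and 3 only. HMT1 was called in all 17 of its alternatives (-7.20 to -6.93) and fell below the brightness limit in the one that leaves out dim probe sets (8.91, the 25th percentile). The number of called probe sets, 11 with all arrays, was 1 to 9 with 1 array left out, 7 with wild-type replicates 1 and 3 only, 6 without dim probe sets, 59 with array weights and 1 in the ordinary unmoderated test. The cause was not tested. Counts without wild-type replicate 2, and the values of listed genes, list medians and ratios with arrays left out, were an addition made after seeing the data.

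Whether the replicate numbers pair the arrays cannot be settled here, since deviations from a group mean are not independent within the group. Same-numbered arrays deviated from their group means with correlations of -0.04, 0.17 and -0.51 over the probe sets. No deletion array correlated best with its own number. Of the wild-type arrays, replicate 2 did (0.17, against -0.20 and -0.06), while replicates 1 and 3 did not. With the number as a replicate block, 1 probe set was called, HMT1 at -7.04, and PHO4, PHO2, PHO80, PHO85 and PHO81 were at -0.0059, 0.13, 0.14, 0.05 and -0.27. Precision is limited by the 7 arrays. The regulators, at 9.21 to 11.36, were well above the signal of 4.50 to 5.03 that the HMT1 probe set gave in the deletion strain.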
